A study of Mus musculus with 18 samples.

Results

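The 9 genes described here encode the transcription factor NRF2 (Nfe2l2), its inhibitor KEAP1 (Keap1) and 7 enzymes and transporters that are textbook NRF2 targets. Of these targets, Slc7a11, Gclc, Gclm, Gsr, Txnrd1 and Srxn1 belong to glutathione and thioredoxin metabolism, and Nqo1 is a quinone reductase. The 9 genes were chosen by name, with earlier results of these data known, and all 9 were found among the 23418 genes of the expression table. The table covers 18 libraries of mRNA from C57BL/6 mouse leukemia cells transformed with MLL-AF9, MLL-AF6 or MLL-AF1p, that is, MLL joined to 1 of 3 partner proteins. For each construct, 3 libraries came from cells given 6 µM MI-2-2, an inhibitor of the binding of menin to MLL, and 3 from cells given DMSO alone. DMSO stood at 0.25% in all 6 groups and treatment lasted 6 days. No group lacked a fusion or DMSO, and the labels say neither whether a construct stands for 1 clone nor whether the replicates were separate cultures, so the p-values measure the spread between libraries, which may be technical.

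As background, NRF2 is a leucine zipper factor that pairs with small MAF proteins and binds antioxidant response elements near genes for glutathione, thioredoxin, quinone, heme and iron metabolism. KEAP1 holds NRF2 for ubiquitination by a CUL3 ligase, and oxidants or electrophiles that modify KEAP1 let NRF2 build up, so much of the control lies at the protein, which mRNA libraries do not measure. SLC7A11 imports cystine, the source of the cysteine in glutathione, and its gene is also known as a target of the amino acid response factor ATF4. In myeloid cells these genes set how well a cell withstands its own oxidants.

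Promoter letters are shown first for Srxn1 and Slc7a11, because these 2 genes had the widest ranges of level among the 9. RefSeq promoter windows of GRCm38.p6, running from 250 bases before to 50 bases after a start site, were present for 7 of the 9 genes, in 9 windows (Txnrd1 has 3 start sites). Below are the 120 bases just before the start, 5′ to 3′ on the gene's strand, at chr2:152105404-152105523 (plus strand) for Srxn1 and chr3:50443614-50443733 (minus strand) for Slc7a11. Capitals mark TGANTCA or TGANTCAGC in Srxn1, and TGATGCAA on either strand in Slc7a11.
Srxn1: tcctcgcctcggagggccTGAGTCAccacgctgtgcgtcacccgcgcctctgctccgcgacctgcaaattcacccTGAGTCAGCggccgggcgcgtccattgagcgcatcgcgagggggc
Slc7a11: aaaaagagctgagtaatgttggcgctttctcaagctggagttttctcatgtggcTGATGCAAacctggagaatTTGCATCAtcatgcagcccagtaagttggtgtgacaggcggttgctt

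The core of the antioxidant response element was searched as TGACNNNGC on both strands. It was found in 4 of the 9 windows, 1 in each of 4 of the 7 genes. These were Nfe2l2 (TGACTCCGC), Gclm (GCACCGTCA, the other strand), Txnrd1 (GCTTTGTCA) and Srxn1 (GCTAGGTCA, after the start site). Of 32544 distinct promoters of the same length, 12.4% held it. The longer NRF2-MAF form TGANTCAGC was present only in Srxn1 among the windows searched, where it overlaps the AP-1 motif TGANTCA; 1.198% of promoters held the longer form and 7.79% the AP-1 motif. Slc7a11 held the amino acid response element core TGATGCAA once on each strand, against a share of 0.867% of promoters with at least 1 match. TGANTCAGC and TGATGCAA were added to the search after the promoters had been seen. A match is a run of letters and not a measured binding site.

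**Figure D1:**
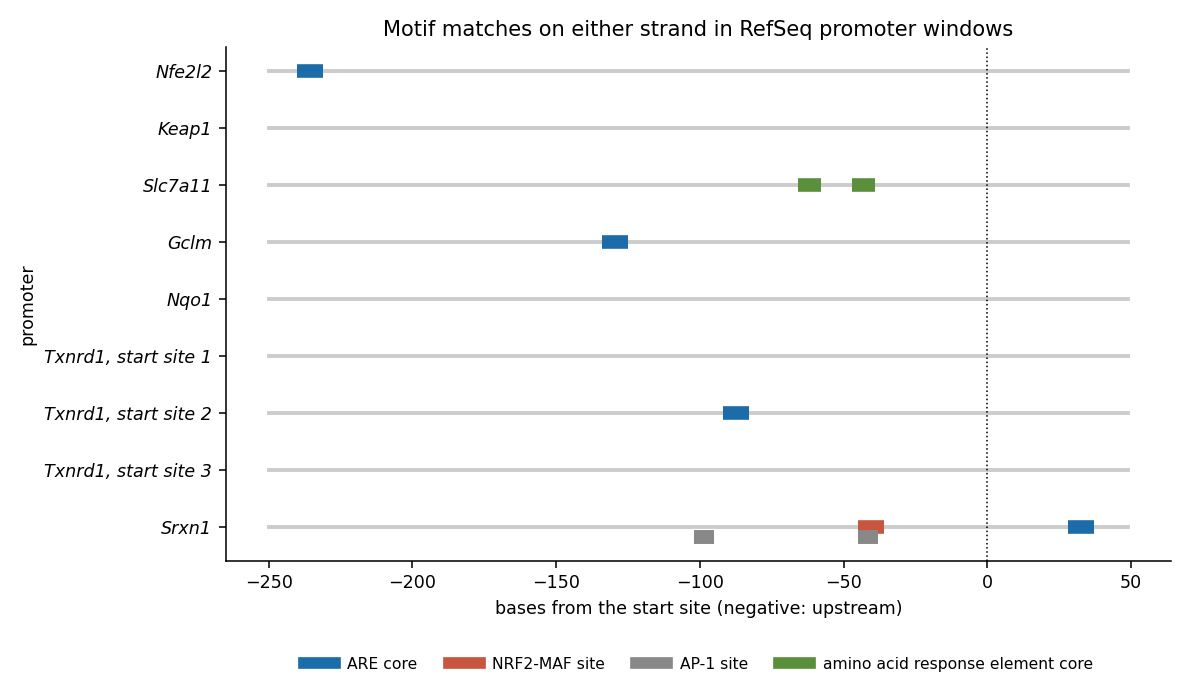
Motif matches (coloured blocks) along the RefSeq promoter windows of 7 of the genes, by distance in bases from the start site; grey lines are the 300-base windows and Txnrd1 has 3 start sites. Srxn1 carries the only NRF2-MAF match, on top of an AP-1 match, and Slc7a11 the only amino acid response element cores.

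Levels are in RPKM, that is, reads scaled to the length of the gene and to the depth of the library. Gsr had the highest RPKM of the 9 genes in all 6 groups. Under DMSO, Gclm, Nfe2l2, Gclc and Txnrd1 followed in this order in each construct, then Srxn1 and Keap1 (Keap1 before Srxn1 in MLL-AF9), and Nqo1 and Slc7a11 came last at 2.74 to 3.77 RPKM on average. Neighbours in that order whose DMSO libraries overlapped were Gclc and Txnrd1 in MLL-AF9, and Nqo1 and Slc7a11 in each construct. The gene length used in the table was 3.98 times the longest GENCODE transcript for Keap1, 3.84 times for Txnrd1 and 0.372 times for Gclm, which shifts their RPKM against other genes but not their fold changes. With RPKM rescaled to the longest transcript, Txnrd1 moved from rank 5 to rank 3 by mean over all libraries, Keap1 from 8 to 5 and Gclm from 2 to 4. Depth was 21180926 to 30671635 counted reads in the MLL-AF9 and MLL-AF6 libraries and 48883357 to 56304997 in those of MLL-AF1p, so that depth and the MLL-AF1p construct cannot be told apart. Nqo1 rested on the fewest reads, 74 to 606 per library, and Gsr on the most, 11172 to 26928.

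Of the 9 genes, 5 or 6 rose with the menin-MLL inhibitor in each construct, and 4 of them rose in all 3. In limma fitted to all 11238 genes tested (log2 of RPKM plus 0.5, adjusted p under 0.05), all 9 passed the filter on low values. Where 3 values follow each other below with no construct named, they are those of MLL-AF9, MLL-AF6 and MLL-AF1p, in this order. In MLL-AF9 cells 5 of the 9 rose and 2 fell, where 28.5% of all genes rose and 27.9% fell (56.4% in either direction). In MLL-AF6 cells 6 rose and 1 fell, against 18% and 38.9% of all genes (57% in either direction). In MLL-AF1p cells 5 rose and none fell, against 19.1% and 26.3% (45.4% in either direction). The median log2 change of the 9 was 0.41, 0.41 and 0.29, beside -0.00055, -0.16 and -0.06 for all genes tested. Nfe2l2, Gclc, Txnrd1 and Srxn1 rose in all 3 constructs, as did 8.64% of all genes; none of the 9 fell in all 3, where 11.4% of all genes did. The share of called genes that were higher in MLL-AF6 depended on the scaling: 31.6% as deposited, 41.9% after centring each library on its median and 52.6% with voom and trimmed-mean library sizes, which moved the median of all genes there from -0.16 to -0.01. Relative to that median, each MLL-AF6 change given below is higher by the same amount.

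**Figure D2:**
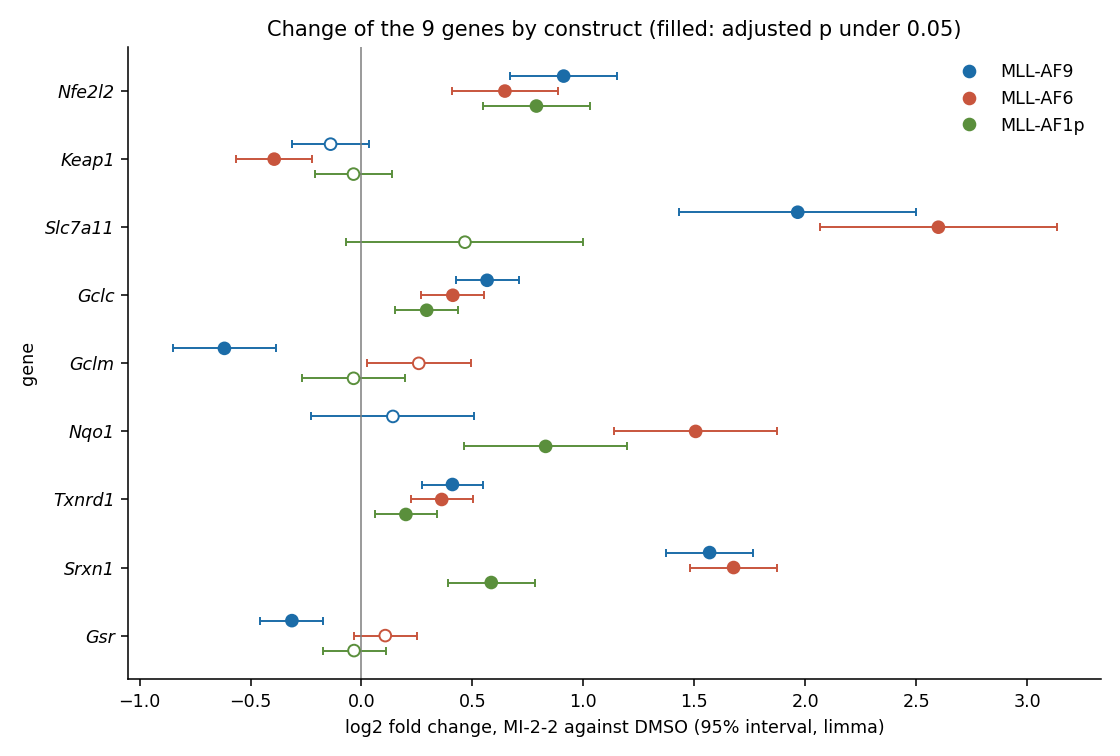
log2 fold change of the 9 genes with MI-2-2 against DMSO, by construct, with 95% intervals from limma; filled points have an adjusted p under 0.05. Nfe2l2, Gclc, Txnrd1 and Srxn1 lie to the right of 0 in each construct, Slc7a11 and Srxn1 rise less in MLL-AF1p, and Gclm and Gsr lie left of 0 in MLL-AF9 alone with a filled point.

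The regulator and its inhibitor come first. Nfe2l2 stood at 54.0, 37.7 and 45.6 RPKM in the MLL-AF9 DMSO libraries and at 94.3, 74.9 and 88.7 with MI-2-2. In MLL-AF6 it went from 57.1, 49.4 and 52.2 to 88.4, 73.7 and 87.7 RPKM, and in MLL-AF1p from 30.3, 31.6 and 30.4 to 52.4, 53.5 and 54.7. Every treated library lay above every DMSO library of its construct. The rise was 1.88-fold in MLL-AF9 (log2 0.91, SE 0.11, adjusted p = 5.43e-06), 1.57-fold in MLL-AF6 (adjusted p = 0.000172) and 1.73-fold in MLL-AF1p (adjusted p = 4.36e-05). A difference between constructs in the size of this rise was not detected (F test of limma, adjusted p = 0.343): the effect in MLL-AF6 was lower than in MLL-AF9 by a log2 difference of -0.26, with a 95% interval of -0.60 to 0.07, and this difference passed without MLL-AF9 DMSO library 1 (-0.39, adjusted p = 0.0383). The starting level did differ, since under DMSO Nfe2l2 was lower in MLL-AF1p than in MLL-AF9 (log2 difference -0.55, adjusted p = 0.000525) and than in MLL-AF6 (-0.77, adjusted p = 5.54e-05).

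Keap1 moved little and downward where it moved. Its level fell in MLL-AF6 by 0.39 on the log2 scale (SE 0.08, adjusted p = 0.000709), from a mean of 6.50 ± 0.63 RPKM (SD, n = 3) to 4.81 ± 0.13, with no overlap between the groups. In MLL-AF9 the mean went from 7.64 to 6.89 RPKM, a log2 change of -0.14 that did not pass (adjusted p = 0.156), although the libraries did not overlap; it passed after median centring (adjusted p = 0.0343) and after quantile normalization (adjusted p = 0.0171). In MLL-AF1p the libraries overlapped (log2 change -0.04, 95% interval -0.21 to 0.14, adjusted p = 0.745). The ratio of regulator to inhibitor RNA was not itself tested.

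Slc7a11, the cystine importer, showed the largest rise of the 9 genes in MLL-AF9 and MLL-AF6. It was read at 1.75, 3.55 and 2.95 RPKM in the MLL-AF9 DMSO libraries and at 15.5, 8.20 and 12.95 with MI-2-2. In MLL-AF6 the values were 2.77, 2.66 and 2.79 RPKM under DMSO and 21.7, 16.6 and 19.5 under MI-2-2. In MLL-AF1p they were 2.11, 4.797 and 3.20 RPKM and 4.52, 4.48 and 4.91. The treated and DMSO libraries lay apart in MLL-AF9 and MLL-AF6 but overlapped in MLL-AF1p, where the second DMSO library was high. The fitted rise was 3.91-fold in MLL-AF9 (log2 1.97, SE 0.25, adjusted p = 7.55e-06) and 6.06-fold in MLL-AF6 (log2 2.60, SE 0.25, adjusted p = 4.23e-07). In MLL-AF1p it was 1.38-fold with an adjusted p of 0.143; without that second DMSO library the log2 change was 0.72 with an adjusted p of 0.0328. The effect in MLL-AF1p was smaller than in MLL-AF9 (log2 difference -1.50, adjusted p = 0.00449) and than in MLL-AF6 (-2.13, adjusted p = 0.000414), whereas MLL-AF6 and MLL-AF9 differed by 0.63 with an interval of -0.12 to 1.39 (adjusted p = 0.184; 0.88 and 0.0499 without MLL-AF9 DMSO library 1).

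**Figure D3:**
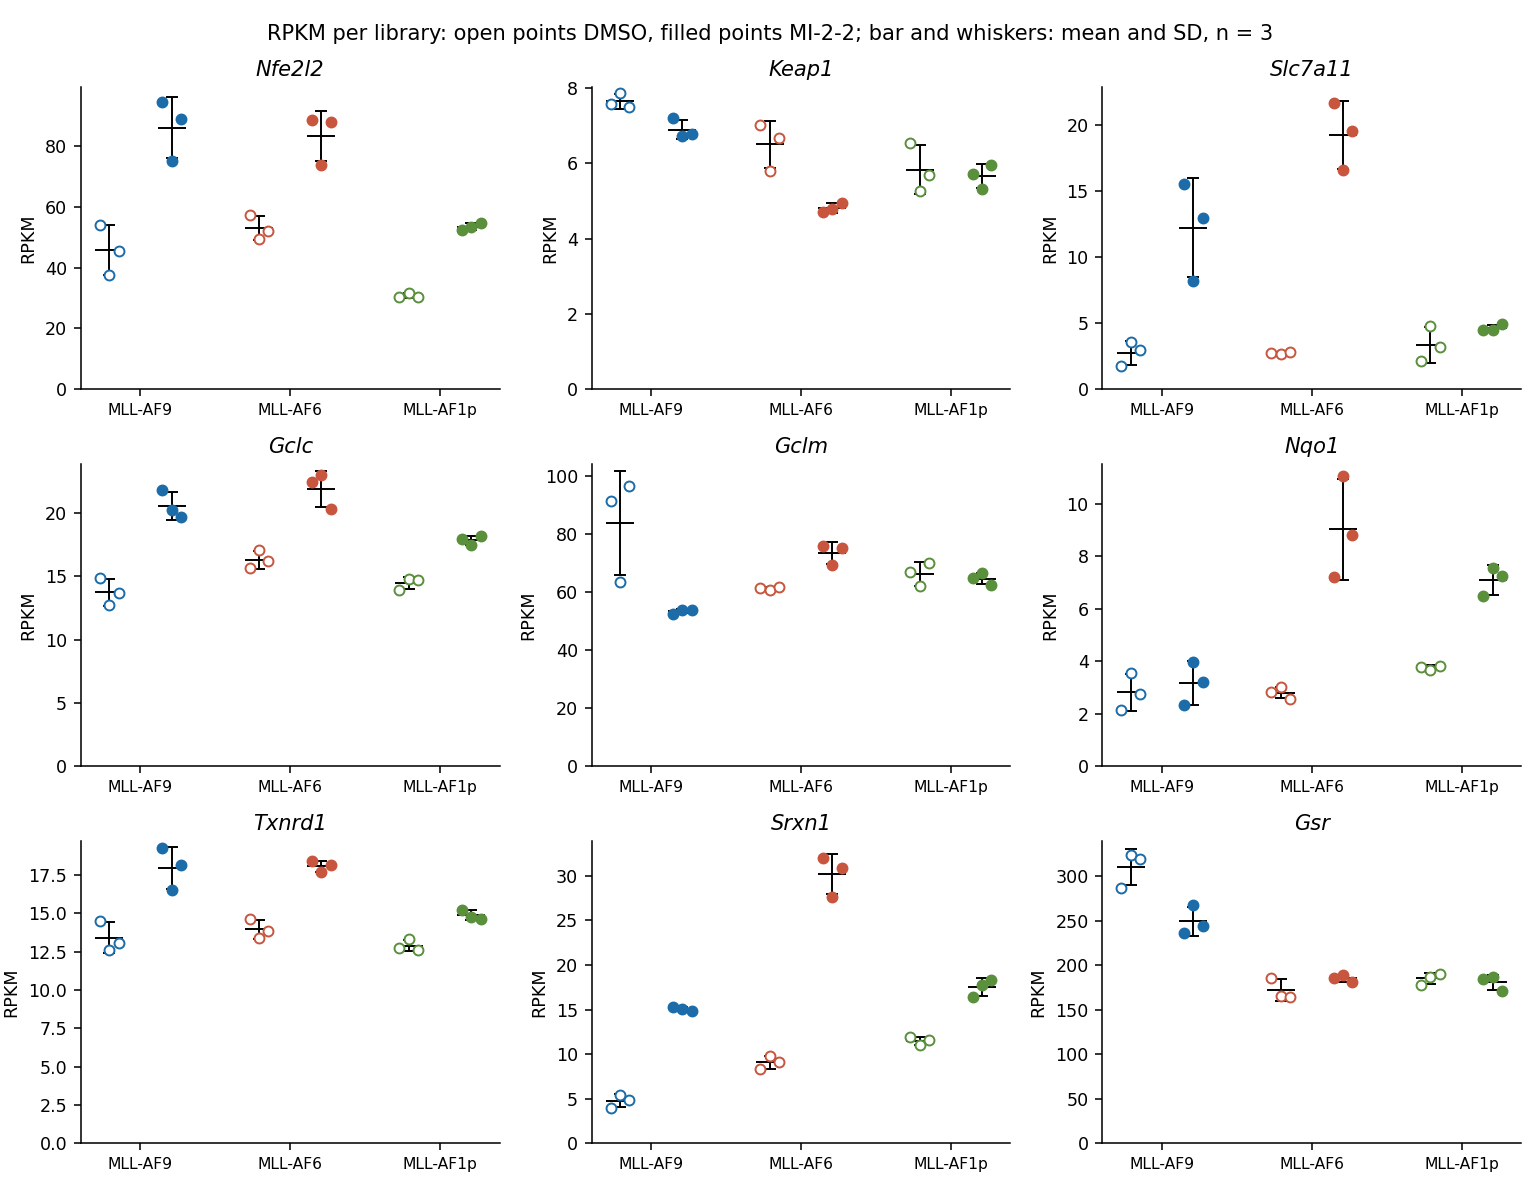
RPKM of the 9 genes in each of the 18 libraries (open points DMSO, filled points MI-2-2, colour by construct); bars and whiskers give the mean and SD of 3 libraries, and each vertical axis starts at 0. For Nfe2l2, Gclc, Txnrd1 and Srxn1 the filled points stand above the open ones in each construct, while for Gclm all filled points lie below all open ones in MLL-AF9 only.

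The 2 subunits of glutamate-cysteine ligase, the enzyme of the first and limiting step of glutathione synthesis, moved in opposite directions in MLL-AF9. Gclc, the catalytic subunit, went from 14.9, 12.7 and 13.7 RPKM to 21.8, 20.3 and 19.7 in MLL-AF9. In MLL-AF6 it went from 15.7, 17.1 and 16.2 RPKM to 22.4, 23.0 and 20.3, and in MLL-AF1p from 13.9, 14.8 and 14.7 to 17.95, 17.5 and 18.2. Treated libraries lay above DMSO libraries in each construct, with rises of 1.48-fold (adjusted p = 3.41e-06), 1.33-fold (adjusted p = 9.10e-05) and 1.23-fold (adjusted p = 0.0022). The rise in MLL-AF1p was smaller than in MLL-AF9 by a log2 difference of -0.27 (adjusted p = 0.0361), a call lost after median centring (-0.15, adjusted p = 0.202) and without any of 9 single libraries (adjusted p from 0.0514 to 0.0914).

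Gclm, the modifier subunit that raises the activity of the catalytic one, was read at 91.6, 63.5 and 96.6 RPKM in the MLL-AF9 DMSO libraries and at 52.7, 54.1 and 54.0 with MI-2-2. Each treated library was below each DMSO library, and the level fell by 0.62 on the log2 scale (SE 0.11, adjusted p = 0.000193). In MLL-AF6 the values were 61.5, 60.8 and 61.9 RPKM and then 76.2, 69.3 and 75.2, so the treated libraries were all higher, by a log2 change of 0.26. That change did not pass (adjusted p = 0.056), but it passed under median centring, quantile normalization and voom (adjusted p = 0.0119, 0.027 and 0.00373). The MLL-AF1p libraries overlapped, at 62.1 to 70.1 RPKM under DMSO and 62.7 to 66.7 with MI-2-2. The effect of MI-2-2 on Gclm differed between MLL-AF6 and MLL-AF9 by 0.88 on the log2 scale (adjusted p = 0.00065) and between MLL-AF1p and MLL-AF9 by 0.58 (adjusted p = 0.00936).

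Gsr, glutathione reductase, which returns oxidised glutathione to its reduced form with NADPH, was the other gene of the 9 that fell in MLL-AF9. Its MLL-AF9 DMSO libraries had 287, 325 and 320 RPKM and the treated ones 237, 268 and 244, so the groups lay apart and the level fell by 0.31 on the log2 scale (SE 0.07, adjusted p = 0.000903). In MLL-AF6 the values ran from 165.0 to 186 RPKM under DMSO and from 181 to 189 with MI-2-2 (adjusted p = 0.184), and in MLL-AF1p from 178 to 191 and from 172 to 187 (adjusted p = 0.71). The MLL-AF6 change of 0.11 passed as a rise after median centring (0.19, adjusted p = 0.0277) and with voom (0.27, adjusted p = 0.00408). Gsr also differed under DMSO: its means were 311, 172 and 185 RPKM, with log2 differences from MLL-AF9 of -0.85 (adjusted p = 4.50e-08) and -0.74 (adjusted p = 1.51e-07). After treatment the MLL-AF9 mean of 249.7 RPKM still stood above the 186 and 181 RPKM of the other constructs.

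Of the thioredoxin branch, Txnrd1 and Srxn1 rose in all 3 constructs, by very different amounts. Txnrd1, thioredoxin reductase of the cytosol, had means of 13.4 ± 1.01, 13.9 ± 0.63 and 12.9 ± 0.37 RPKM under DMSO (SD, n = 3) and of 17.95 ± 1.38, 18.1 ± 0.35 and 14.9 ± 0.31 with MI-2-2. Its DMSO and treated libraries did not overlap in any construct, and the rises were 1.33-fold, 1.28-fold and 1.15-fold (adjusted p = 7.13e-05, 0.00024 and 0.0211). The MLL-AF1p call was lost without DMSO library 1 (adjusted p = 0.0544), DMSO library 3 (0.0697) or MI-2-2 library 1 (0.0732).

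Srxn1, sulfiredoxin, repairs peroxiredoxins whose catalytic cysteine has been over-oxidised; its promoter carries the TGAGTCAGC match shown above. It was read at 3.98, 5.45 and 4.90 RPKM in MLL-AF9 under DMSO and at 15.3, 15.1 and 14.9 with MI-2-2. In MLL-AF6 it went from 8.35, 9.81 and 9.13 to 32.0, 27.7 and 30.9 RPKM, and in MLL-AF1p from 11.9, 11.1 and 11.6 to 16.5, 17.8 and 18.4. The groups lay apart in every construct. The rise was 2.97-fold in MLL-AF9 (log2 1.57, SE 0.09, adjusted p = 1.38e-09), 3.20-fold in MLL-AF6 (log2 1.68, adjusted p = 5.68e-10) and 1.50-fold in MLL-AF1p (log2 0.58, adjusted p = 0.000103). MLL-AF1p rose less than MLL-AF9 (log2 difference -0.98, adjusted p = 5.21e-05) and than MLL-AF6 (-1.09, adjusted p = 3.05e-05). Under DMSO the Srxn1 level of MLL-AF1p was above that of MLL-AF9 by 1.20 on the log2 scale (adjusted p = 2.64e-08) and above that of MLL-AF6 by 0.33 (adjusted p = 0.00787; 0.0516 with the DMSO libraries fitted alone).

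Nqo1, a quinone reductase often used as a readout of NRF2, rose in MLL-AF6 and MLL-AF1p; a change in MLL-AF9 was not detectable. The MLL-AF9 libraries had 2.14, 3.56 and 2.76 RPKM under DMSO and 2.33, 3.97 and 3.21 with MI-2-2, which overlap (log2 change 0.14, 95% interval -0.23 to 0.51, adjusted p = 0.507). Each treated library there was above the DMSO library of the same number. The fit did not use these numbers, and with them as a block the change did not pass either. In MLL-AF6 it went from 2.84, 3.02 and 2.57 RPKM to 7.22, 11.1 and 8.79, a 2.84-fold rise (adjusted p = 2.85e-06), and in MLL-AF1p from 3.79, 3.68 and 3.83 to 6.48, 7.55 and 7.25, a 1.78-fold rise (adjusted p = 0.00112). The groups lay apart in these 2 constructs. The effect in MLL-AF6 exceeded that in MLL-AF9 by 1.36 on the log2 scale (adjusted p = 0.000701), and that in MLL-AF1p exceeded it by 0.69 (adjusted p = 0.0395), the latter not passing without any of 9 single libraries (adjusted p from 0.0594 to 0.103).

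Compared between constructs under DMSO, 5 of the 9 genes differed between MLL-AF6 and MLL-AF9 and 5 between MLL-AF1p and MLL-AF9, where 53.6% and 65.1% of all genes did, and 3 differed between MLL-AF1p and MLL-AF6, against 52.5%. These shares do not stand above the background. Srxn1 was higher in both MLL-AF6 and MLL-AF1p than in MLL-AF9, and Gsr and Gclm lower in both; Keap1 was lower in MLL-AF1p (-0.37, adjusted p = 0.000932) and in MLL-AF6 (-0.22, adjusted p = 0.0301; 0.0716 without MLL-AF9 DMSO library 2 and 0.144 without MLL-AF6 DMSO library 2). Gclm no longer passed between MLL-AF1p and MLL-AF9 without MLL-AF9 DMSO library 1 or 3 or MLL-AF1p DMSO library 2 (adjusted p from 0.0783 to 0.126). The comparisons share the DMSO libraries of each construct. Of the effects of MI-2-2, 6 of the 9 genes differed among constructs by the F test, against 52.8% of all genes; Nfe2l2, Gclc and Txnrd1 were the 3 that did not pass. The count ranged from 5 to 8 with 1 library left out, and Keap1 lost this call without any of 12 single libraries (adjusted p from 0.0515 to 0.0958) and after median centring, quantile normalization or voom (0.0817, 0.0742 and 0.167). By pairs, 3 differed between MLL-AF6 and MLL-AF9 (33.1% of all genes), 6 between MLL-AF1p and MLL-AF9 (35.1%) and 4 between MLL-AF1p and MLL-AF6 (31.1%). All 3 libraries of a treatment lay beyond all 3 of the other for 8, 8 and 5 of the 9 genes, where 57.2%, 60.9% and 69.2% of all genes did.

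The pathway around these genes was read through 94 further genes in 8 lists, of which 80 passed the filter. Rises and falls together numbered 19 and 28, 24 and 22, and 22 and 22, with medians of -0.08, 0.05 and -0.09 on the log2 scale. Among all genes tested, 28.5%, 18% and 19.1% rose and 27.9%, 38.9% and 26.3% fell. With voom, 33 rose and 12 fell in MLL-AF6. The lists moved in different directions, as the following paragraphs give.

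By median, the list of other NRF2 target genes, mostly of heme, iron and carbonyl metabolism, rose the most of the pathway lists. Of 15 tested, rises and falls numbered 11 and 1, 12 and 2, and 10 and 2, with medians of 0.78, 1.55 and 0.77. Glutathione transferases and genes of NADPH supply were listed apart, so these counts describe this list and not NRF2 targets as a whole. Among all genes tested, 28.5%, 18% and 19.1% rose and 27.9%, 38.9% and 26.3% fell. Akr1b8, a rise in each construct, had DMSO means of only 0.07, 0.03 and 0.04 RPKM. It passed the filter only through treated libraries, so it could hardly count as a fall, and its MLL-AF9 change of 0.78 is the median there. The lists were chosen with earlier results known. Fth1, the ferritin heavy chain that stores iron, had means of 231, 257 and 212 RPKM under DMSO and 1243, 2624 and 609 with MI-2-2 (log2 changes 2.42, 3.35 and 1.52). Hmox1, heme oxygenase, rose by 1.82, 2.85 and 1.13 on the log2 scale, and Slc40a1, the iron exporter ferroportin, by 2.45, 1.55 and 1.89. All of these passed, with adjusted p from 1.07e-13 to 0.00319. Fth1, Hmox1 and Slc40a1 are also known to be abundant in macrophages.

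Glutathione transferases, which couple glutathione to electrophiles, went the other way in MLL-AF9 and MLL-AF1p, and less clearly in MLL-AF6. Of 14 tested, 10, 7 and 10 fell and 0, 2 and 0 rose, with medians of -0.65, -0.33 and -0.63. Among all genes tested, 27.9%, 38.9% and 26.3% fell and 28.5%, 18% and 19.1% rose, with medians of -0.00055, -0.16 and -0.06. With voom, 3 transferases rose and 4 fell in MLL-AF6. Gstm5 fell by 1.57, 0.88 and 1.39 on the log2 scale (adjusted p = 6.10e-08, 3.26e-05 and 4.90e-07). Gsta4 fell by 2.63 in MLL-AF9 (adjusted p = 2.51e-07) and by 0.88 in MLL-AF1p (adjusted p = 0.00817); its MLL-AF6 change of -0.53 did not pass (adjusted p = 0.0786). Gstt1 fell by 2.03 in MLL-AF1p (adjusted p = 0.0034) and by 1.68 in MLL-AF6 (adjusted p = 0.00865), the latter not passing without DMSO library 1 of MLL-AF6 (adjusted p = 0.0504); its MLL-AF9 change of -1.06 did not pass (adjusted p = 0.0782).

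Among the 4 glutathione peroxidases tested, 3, 2 and 2 fell, and 1 rose, in MLL-AF1p. The shares of all genes that fell were 27.9%, 38.9% and 26.3%, and 19.1% rose in MLL-AF1p. Gpx8, of the endoplasmic reticulum, fell from 9.71, 4.55 and 3.82 RPKM to 0.416, 0.492 and 0.298. Gpx4, which reduces lipid peroxides, fell by 0.40, 0.22 and 0.31 on the log2 scale (adjusted p = 8.67e-06, 0.00225 and 0.000183), the MLL-AF6 fall not passing after median centring (-0.14, adjusted p = 0.0614) or with voom (-0.06, adjusted p = 0.434). Gpx1, the abundant peroxidase of the cytosol, passed in no construct (adjusted p = 0.58, 0.313 and 0.0524), but it passed as higher in MLL-AF9 after quantile normalization (0.36, adjusted p = 0.00123) and without MLL-AF9 DMSO library 2 (0.20, adjusted p = 0.0259), and in MLL-AF6 with voom (0.28, adjusted p = 0.0286). In MLL-AF1p the change of -0.23 passed as lower without DMSO library 1 or 2 of MLL-AF9 or DMSO library 1 of MLL-AF6, which shape only the shared spread (adjusted p = 0.0215, 0.00641 and 0.0498), and with MLL-AF1p fitted alone (0.00493). Gpx3, a secreted peroxidase, was the one that rose in MLL-AF1p (0.32, adjusted p = 0.00206) and fell in MLL-AF9 (by 0.21, adjusted p = 0.023), a fall that did not pass without MLL-AF9 DMSO library 3 (0.0868) or MI-2-2 library 1 (0.084).

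**Figure D4:**
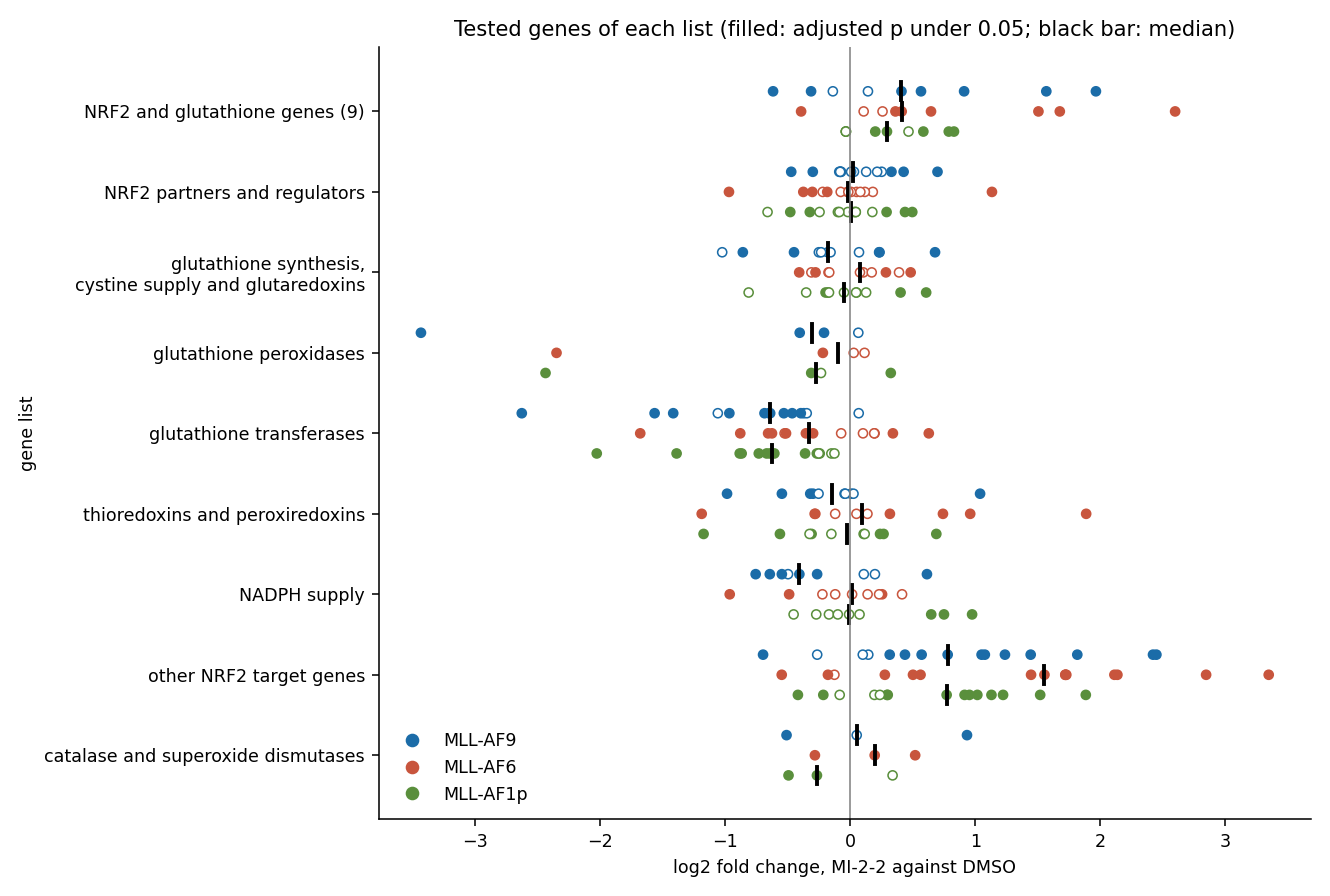
log2 fold change with MI-2-2 of each tested gene in the 9 genes and 8 further lists, by construct (colour); filled points have an adjusted p under 0.05 and black bars are medians. Genes of the list of other NRF2 target genes lie mostly to the right (medians 0.78, 1.55 and 0.77). Glutathione transferases, listed apart, lie mostly to the left (medians -0.65, -0.33 and -0.63).

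Of 10 thioredoxins and peroxiredoxins, rises and falls numbered 1 and 4, 4 and 2, and 3 and 3. Those not passing numbered 5, 4 and 4. The shares of all genes were 28.5%, 18% and 19.1% for rises and 27.9%, 38.9% and 26.3% for falls. Prdx1, a peroxiredoxin of the cytosol and a substrate of sulfiredoxin, rose in all 3 constructs by 1.04, 1.89 and 0.69 on the log2 scale, and the MLL-AF1p rise did not pass without DMSO library 2 (adjusted p = 0.05002). Txn1, thioredoxin, rose in MLL-AF6 by 0.74 (adjusted p = 1.04e-06) and in MLL-AF1p by 0.24 (adjusted p = 0.0205, not passing without DMSO library 2, 0.0975); in MLL-AF9 its change was 0.03 (adjusted p = 0.799). Txnip, which binds and inhibits thioredoxin, fell by 0.99, 1.19 and 1.17. Prdx4, of the secretory route, rose in MLL-AF6 (0.96, adjusted p = 0.00111) and fell in MLL-AF1p by 0.56 (adjusted p = 0.0379), a fall that did not pass after median centring (adjusted p = 0.0596).

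Genes of the steps next to SLC7A11 and glutamate-cysteine ligase follow. Among 11 tested genes of glutathione synthesis, cystine supply and glutaredoxins, 2, 2 and 2 rose and 2, 2 and 1 fell. The shares of all genes were 28.5%, 18% and 19.1% for rises and 27.9%, 38.9% and 26.3% for falls. Slc3a2, the partner chain of SLC7A11, changed by -0.23, 0.39 and -0.17 on the log2 scale and passed in none (adjusted p = 0.418, 0.169 and 0.584); without DMSO library 1 of MLL-AF9 it passed there as lower (-0.55, adjusted p = 0.0258). Gss, which completes glutathione, passed in none either (0.07, 0.08 and -0.18). Glrx, a glutaredoxin, rose by 0.23, 0.48 and 0.40. Chac1, which degrades glutathione and is a target of ATF4, changed by -1.02, -0.17 and -0.81 and passed in none, with 1 MLL-AF9 DMSO library deciding the first: without DMSO library 1 it was -1.88 (adjusted p = 0.000195). Oplah fell in MLL-AF9 by 0.86 (adjusted p = 0.0223), a call lost without the same library (-0.54, adjusted p = 0.12).

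The partners of NRF2 gave 3, 1 and 3 rises and 2, 4 and 2 falls of 14 tested. In each construct 9 did not pass. Among all genes tested, 28.5%, 18% and 19.1% rose and 27.9%, 38.9% and 26.3% fell. Mafg, a small MAF protein, rose in MLL-AF9 (0.70, adjusted p = 1.19e-06) and MLL-AF1p (0.29, adjusted p = 0.00517) and changed by -0.02 in MLL-AF6 (adjusted p = 0.816). Maff, another, rose in MLL-AF6 (1.13, adjusted p = 0.00186); its change of -0.66 in MLL-AF1p did not pass (adjusted p = 0.0519) but passed as lower with voom (-0.75, adjusted p = 0.0272) and without DMSO library 1 or 2 of MLL-AF9 or of MLL-AF6 (0.0112, 0.0198, 0.0483 and 0.0438), and with MLL-AF1p fitted alone (0.00413). Nfe2, a relative of NRF2 of blood cells, fell by 0.47, 0.97 and 0.32, and Btrc, of a KEAP1-independent ligase for NRF2, by 0.30, 0.38 and 0.48. Bach1, a repressor at the same elements, passed in none (0.03, 0.18 and -0.02), although in MLL-AF6 it passed as higher after median centring (0.26, adjusted p = 0.0117). Sqstm1, p62, which binds KEAP1, passed in none (-0.08, 0.08 and -0.09).

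Genes of NADPH supply gave 1, 1 and 3 rises and 5, 2 and 0 falls of 9 tested. Those not passing numbered 3, 6 and 6. Among all genes tested, 28.5%, 18% and 19.1% rose and 27.9%, 38.9% and 26.3% fell. Pgd, phosphogluconate dehydrogenase of the pentose phosphate route, rose in MLL-AF1p (0.65, adjusted p = 4.03e-06) and MLL-AF6 (0.25, adjusted p = 0.00781; 0.11 and adjusted p = 0.141 after quantile normalization), and changed by 0.11 in MLL-AF9 (adjusted p = 0.222). Me1, malic enzyme, rose in MLL-AF1p (0.97, adjusted p = 0.00286) and MLL-AF9 (0.61, adjusted p = 0.033; 0.0591 after median centring and 0.161 without MLL-AF9 DMSO library 2). H6pd fell in MLL-AF9 by 0.64 (adjusted p = 0.011; 0.0672 without MI-2-2 library 2) and in MLL-AF6 by 0.96, and the mitochondrial transhydrogenase Nnt by 0.55 and 0.49. Of the 3 tested genes for catalase and superoxide dismutases, Sod1 fell in all 3 constructs, by 0.51, 0.28 and 0.49 (MLL-AF6 not passing with voom, adjusted p = 0.132), Sod2 rose in MLL-AF9 (0.93) and MLL-AF6 (0.52), and Cat fell in MLL-AF1p by 0.27 (adjusted p = 0.0129; 0.054 without its DMSO library 1) and rose in MLL-AF6 (0.20, adjusted p = 0.0471; 0.0847 with no filter on low values).

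Markers of maturing myeloid cells moved with the treatment. The summed RPKM of 12 monocyte and macrophage markers ran from 591 to 1949, 2055 to 4147 and 689 to 806 under DMSO, and from 4382 to 5652, 10016 to 14239 and 4238 to 4695 with MI-2-2. Of 10 tested, 9, 8 and 10 rose, where 28.5%, 18% and 19.1% of all genes did. For 11 neutrophil markers the highest DMSO sum in any library was 4060 RPKM and the lowest treated sum 18753, and 11, 11 and 9 of 11 rose. The summed level of 11 myeloid progenitor markers was lower with MI-2-2 in every library of MLL-AF9 (5845 to 8845 against 2120 to 2341 RPKM) and MLL-AF6 (5087 to 5404 against 2089 to 2637), where 7 of 9 tested fell and 1 and 2 rose. It overlapped in MLL-AF1p (6157 to 8611 against 6714 to 7189), where 4 of 9 fell and 1 rose. Of all genes, 27.9%, 38.9% and 26.3% fell. Elane, Prtn3 and Ctsg, granule proteases, made up most of the progenitor sum. S100a8 and S100a9 made up most of the neutrophil sum, and Lyz2 most of the monocyte and macrophage sum. The progenitor markers that rose were named here after their values were seen. On the RPKM + 0.5 scale they were Mpo (9.63-fold in MLL-AF6 and 6.79-fold in MLL-AF1p) and Kit (1.28-fold in MLL-AF9 and 1.30-fold in MLL-AF6). T cell, B cell, erythroid and stromal marker sums stayed at 2.89 RPKM or less, with Cd3e, Ms4a1, Hbb-b1 and Hba-a1 at 0 in every library; the leukocyte markers were present in every library, as the label has it. The part of these shifts in the values of the 9 genes was not tested, and in bulk RNA fewer cells of a type and less RNA per cell cannot be told apart.

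Genes whose level most resembled that of a member over the 18 libraries were named by Pearson's r of log2 values, as a description only, since the libraries share 6 groups and the treatment separates them. Nfe2l2 was closest to Sumf1 (r = 0.978), Mgrn1 (0.977) and Rhbdf2 (0.974). Slc7a11 was closest to Rgs1 (0.970), Cd22 (0.965) and Rnf149 (0.962). Rnf149 went from a mean of 14.7, 14.3 and 15.4 RPKM under DMSO to 46.2, 55.2 and 24.2 with MI-2-2. Rgs1 and Cd22 had means under 4 RPKM in every group, and of 0.06 RPKM or less under DMSO. Both passed the filter on low values only through treated libraries. Srxn1 was closest to Car13, Vim and Atf3 (0.972, 0.972 and 0.971), and Atf3, a stress-induced transcription factor, went from 0.331, 2.43 and 2.84 RPKM to 11.3, 25.0 and 8.58.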

How the data were processed

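The deposited table gives RPKM per gene for 18 mRNA libraries (Illumina TruSeq mRNA v2, which does not mark strand, per the labels' protocols). Per the submitters' processing notes, the authors' tools were CASAVA 1.8.2, Bowtie2 2.0.0.7, HTSeq and edgeR, with build mm9; the role of each is not given in the sources used here. RPKM times gene length sums to the same total in each library, and multiplied by the recovered depth 100% of values came out as whole reads (tolerance 0.05), 21180926 to 56304997 per library.

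Log2(RPKM + 0.5) of the 11238 genes with at least 1 RPKM in at least 3 libraries was fitted in limma 3.58.1 (R 4.3.3) with 6 group means (12 residual degrees of freedom, trended prior variance) and Benjamini-Hochberg adjustment at 0.05 within each comparison; fold changes are on this scale and understate those of low genes. The fit was checked on simulated data. The plots come from matplotlib 3.10.9 (Python 3.11.15). Alternatives were other pseudocounts, no filter, other scalings, voom on the recovered reads with trimmed-mean library sizes, a replicate block, a constant prior, smaller fits and each library left out; leaving out all libraries numbered 1 or 2 and rescaling levels to the longest GENCODE M21 transcript were chosen after seeing the data.

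The 9 genes and the lists were chosen with earlier results of these data known. Beside the 9 genes, the text names from each list up to 3 tested genes with the largest mean absolute change over the constructs, 12 genes fixed by interest (such as Hmox1 and Gss), the 3 genes most like Nfe2l2, Slc7a11 and Srxn1, and markers at 0. Markers that made up most of a sum, and progenitor markers that rose, are named as well. Promoters come from RefSeq (GRCm38.p6), another build than the authors', so no expression value was placed by coordinate. Lists not described above were mast cell and basophil markers, of which 1 of 6 was tested; it fell in MLL-AF9 and MLL-AF6. A further gene of the chosen set and some markers are not reported here.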

Additional observations from a re-analysis of the deposited data

Results flagged for a closer look

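The effect of MI-2-2 differed between constructs for 13 of 27 gene and pair combinations, by limma's test of the difference itself. By pair, 3 of the 9 genes differed between MLL-AF6 and MLL-AF9, 6 between MLL-AF1p and MLL-AF9 and 4 between MLL-AF1p and MLL-AF6. Of all genes 33.1%, 35.1% and 31.1% did, so the first of these counts is near the background. The third ranged from 2 to 5 with 1 library left out and is not clearly above the background either. The second ranged from 3 to 7. Values are log2 differences of the MI-2-2 effect. MLL-AF6 against MLL-AF9 gave 1.36 for Nqo1, 0.88 for Gclm and 0.42 for Gsr. MLL-AF1p against MLL-AF9 gave -1.50 for Slc7a11, -0.98 for Srxn1, 0.69 for Nqo1, 0.58 for Gclm, 0.28 for Gsr and -0.27 for Gclc. MLL-AF1p against MLL-AF6 gave -2.13 for Slc7a11, -1.09 for Srxn1, -0.68 for Nqo1 and 0.36 for Keap1. The MLL-AF1p libraries also had more reads than the others, which cannot be told apart from the construct. With 1 library left out, 5 of these differences could lose their call. For MLL-AF1p against MLL-AF9 these were Gclc (9 libraries could end it, adjusted p from 0.0514 to 0.0914), Nqo1 (9 libraries, 0.0594 to 0.103) and Gsr (7 libraries, 0.0593 to 0.0798). For MLL-AF1p against MLL-AF6 these were Nqo1 (12 libraries, 0.0575 to 0.116) and Keap1 (7 libraries, 0.0557 to 0.07).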

How the results depend on the processing

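None of the 9 genes reversed a called direction under any of the 30 alternatives, and 2423 of 2574 recomputed values kept their call (109 lost it, 42 gained it). The number of genes called with MI-2-2, 7, 7 and 5 in MLL-AF9, MLL-AF6 and MLL-AF1p, ranged over 7 to 8, 7 to 9 and 4 to 6. The count of effects that differed between MLL-AF6 and MLL-AF9, 3, ranged from 3 to 5 with 1 library left out (5 without MLL-AF9 DMSO 1). The count of differing effects between MLL-AF1p and MLL-AF9, 6, ranged from 3 to 7 with 1 library left out (3 without MLL-AF9 DMSO 2 or 3, MLL-AF9 MI-2-2 1 or MLL-AF1p MI-2-2 2) and was 3 with all libraries numbered 1 left out. Between MLL-AF1p and MLL-AF6 it was 4, ranged from 2 to 5 with 1 library left out (2 without MLL-AF6 DMSO 1 or 3, MLL-AF1p DMSO 2 or 3, or MLL-AF1p MI-2-2 1 or 3) and was 2 after quantile normalization. The 5 DMSO differences between MLL-AF6 and MLL-AF9 were 3 with all libraries numbered 2 left out, and the 3 between MLL-AF1p and MLL-AF6 were 1 with the DMSO libraries fitted alone. The cause was not tested.

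The labels number the libraries of every group 1 to 3. Between DMSO and MI-2-2, the deviations of libraries numbered 1, 2 and 3 correlated for MLL-AF9 at 0.28, 0.46 and 0.01. The values were 0.49, 0.56 and 0.00 for MLL-AF6, against 0.10, 0.21 and 0.03 for MLL-AF1p; all libraries numbered 2 correlated best with their own number, but not all numbered 1 or 3. Between the DMSO groups of MLL-AF6 and MLL-AF9 the values for numbers 1, 2 and 3 were 0.63, 0.60 and -0.10. The DMSO pairs with MLL-AF1p gave 0.03 to 0.26. Numbers 1 and 2 correlated best with their own number between all DMSO groups. The 3 deviations of a gene in a group sum to 0, so the value of number 3 is not independent of the others. Numbers 1 and 2 thus deviated together in part. The labels name no shared source, so the libraries were not treated as paired. With the number as a block, 7, 8 and 5 of the genes were called with MI-2-2, Gclm in MLL-AF6 being the one gained (adjusted p = 0.0364). The block also added the smaller Txnrd1 effect of MLL-AF1p against MLL-AF9 (0.0478) and, under DMSO, Nfe2l2 in MLL-AF6 against MLL-AF9 (0.0432) and Nqo1 in MLL-AF1p against MLL-AF9 (0.0123) and MLL-AF6 (0.0191). Of the list genes it added 20 calls and ended 0, among them Chac1 and Gstt1 in MLL-AF9 (0.0358 and 0.0244), Slc3a2, Gsta4 and Me1 in MLL-AF6 (0.0479, 0.0386 and 0.00557), and Maff, Gpx1, H6pd and Nnt in MLL-AF1p (0.0449, 0.0355, 0.00166 and 0.0239). Limits are the 3 libraries per group and, for Nqo1, as few as 74 reads in a library.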
